A study of Homo sapiens with 4 samples.

Results

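The IL-6 family genes described here are 9 of the 24424 gene symbols in the count tables of a peptide study in BEAS-2B cells. They were taken by their symbols from a list of family names. The ligand genes were IL6, LIF, IL11 and EBI3, and the receptor genes were IL6R, IL11RA, IL6ST, LIFR and OSMR. All 9 symbols were present in the tables, and 8 of them averaged 16 normalized counts or more over the libraries, as did 13072 of the 24424 symbols. IL11 was below that level.

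RNA was sequenced from 4 libraries of BEAS-2B, an immortalized line of normal human bronchial epithelium, with 1 library per condition. The Control library came from untreated cells. The LPS library came from cells given LPS, the outer membrane lipopolysaccharide of gram-negative bacteria, for 2 hr. In the WT PDZ+LPS and mut PDZ+LPS libraries, cells first received a peptide for 24 hr, either the wild-type PDZ peptide derived from the tight junction protein ZO-1 or its mutant form, and then LPS for 2 hr. All 4 libraries carry the label of a wild-type genotype, no library had a peptide without LPS, and the sample labels give no dose. With 1 library per condition there was no replicate check and no test across conditions, so every comparison below is between 2 libraries.

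Cytokines of the IL-6 family signal through receptor complexes built around a shared chain, gp130, which is encoded by IL6ST. IL-6 and IL-11 first bind their own receptor chains, encoded by IL6R and IL11RA, whereas LIF pairs gp130 with the chain encoded by LIFR and oncostatin M pairs it with the chain encoded by OSMR. EBI3 is a soluble, receptor-like chain that is released together with a partner cytokine chain. The complexes activate JAK kinases and the transcription factor STAT3. In airway epithelium IL6 and LIF are known as early genes of the response to bacterial products, and the receptor genes are known to be transcribed at rest.

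The libraries held 19682929 to 25155647 counts, the fewest in mut PDZ+LPS. A normalized count is the count divided by the size factor of its library, and a log2 fold change was taken after adding 1 normalized count. A gene is called higher or lower where the fold was at least 2 and at least 1 of the 2 libraries had 16 normalized counts or more. Intervals are 95% and describe counting error alone. Reads carried no molecular identifiers and are not independent molecules. The mut PDZ+LPS library stood apart by transcript length, with a Spearman's rho of -0.605 between transcript length and the mut PDZ+LPS/LPS log2 fold change across 12119 genes, against 0.0750 for WT PDZ+LPS/LPS. Genes are not independent replicates, and the rho is a description. Values for mut PDZ+LPS are therefore given also after a length and GC correction, which removes the trend over the length and the GC content of the transcripts. The 7 epithelial markers were all at 16 normalized counts or more in every library, and their summed level ran from 68058 in WT PDZ+LPS to 94331 in mut PDZ+LPS. Of 8 leukocyte markers, CD14 and CD68 reached that level, and PTPRC and MS4A1 were at 0 in every library. Of 7 fibroblast and endothelial markers, COL1A1 reached it.

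IL6, on chromosome 7, encodes the cytokine that gave the family its name. The IL6 count was 405 without treatment, 10725 with LPS alone, 9209 with the wild-type peptide and LPS and 12450 with the mutant peptide and LPS. These counts correspond to normalized counts of 352, 10089, 9299 and 14629. The Control library was low and the 3 LPS-treated libraries were high, with mut PDZ+LPS the highest. In LPS/Control the log2 fold change of IL6 was 4.84 (4.70 to 4.99), a fold of 28.5 and the 31st largest increase among 13277 genes with 16 normalized counts in either library. In these bulk libraries, more cells carrying a transcript and more RNA per cell cannot be told apart.

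LIF, on chromosome 22, encodes leukemia inhibitory factor. LIF had 694 counts without treatment, 10648 with LPS alone, 8718 with the wild-type peptide and 10154 with the mutant peptide, or normalized counts of 604, 10016, 8803 and 11931. As for IL6, Control stood below the other libraries and mut PDZ+LPS was the highest. The log2 fold change of LIF in LPS/Control was 4.05 (3.94 to 4.16), a fold of 16.6 and the 47th largest increase. Within each library the ratio of IL6 to LIF counts, which no scaling between libraries can change, was 0.584 (0.515 to 0.661) without treatment, 1.01 (0.980 to 1.03) with LPS alone, 1.06 (1.03 to 1.09) with the wild-type peptide and 1.23 (1.19 to 1.26) with the mutant peptide. IL6 therefore had fewer counts than LIF in the untreated library and more in both peptide libraries. In mut PDZ+LPS the ratio also carries the length trend of that library, since the transcript of IL6 has 1527 bases and that of LIF 3969. In mut PDZ+LPS/LPS the log2 fold changes of IL6 and LIF were 0.54 and 0.25, or 0.34 and 0.33 after the length and GC correction.

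EBI3, on chromosome 19, had a few counts in the untreated cells. Its count was 5 there, 79 with LPS alone, 27 with the wild-type peptide and 45 with the mutant peptide, corresponding to 4.35, 74.3, 27.3 and 52.9 normalized counts. LPS was the highest library and WT PDZ+LPS the lowest of those given LPS. In LPS/Control the log2 fold change of EBI3 was 3.81 with a wide interval of 2.81 to 5.76, a fold of 14.1 and the 53rd largest increase. IL11, also on chromosome 19, encodes interleukin-11 and had 7 counts without treatment, 4 with LPS alone, 4 with the wild-type peptide and 18 with the mutant peptide. The first 3 of these libraries were within counting error of each other, with a log2 fold change in LPS/Control of -0.57 (-2.92 to 1.28), and neither of those 2 libraries reached 16 normalized counts.

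In LPS/Control, 3 of the 9 family genes were called, all of them ligand genes and all higher: IL6, LIF and EBI3. Over all genes with 16 normalized counts in either library, 4.87% were called in this comparison, 3.46% higher and 1.41% lower. The same 3 ligand genes were called higher in WT PDZ+LPS/Control, where 4.7% of genes were called, 3.28% higher, with log2 fold changes of 4.72 for IL6, 3.86 for LIF and 2.40 for EBI3. In mut PDZ+LPS/Control, where 8.09% of genes were called, 5.13% higher and 2.96% lower, their log2 fold changes were 5.37, 4.30 and 3.33. IL11 was called higher there as well, at 1.64 (0.47 to 3.30), but it passed 16 normalized counts in mut PDZ+LPS alone. After the length and GC correction these 4 ligand genes were at 5.24, 4.37, 2.91 and 1.54. LIFR was called lower in mut PDZ+LPS/Control, with 850 counts against 2636 and a log2 fold change of -1.20 (-1.31 to -1.09), but it was at -0.77 after the correction and no longer called, when 1.76% of genes were called lower. The 3 comparisons share the Control library.

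**Figure D1:**
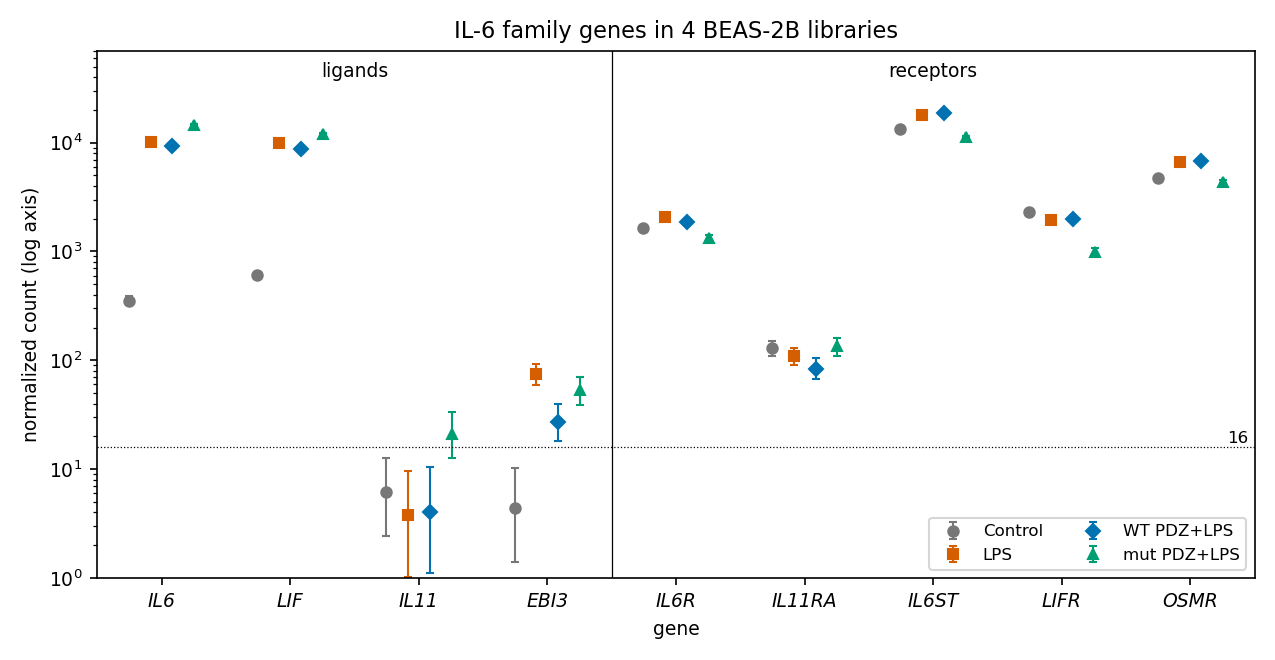
Normalized count (vertical log axis) of each IL-6 family gene (horizontal axis) in each of the 4 libraries, 1 point per library, with bars for the exact 95% Poisson counting interval and a dotted line at 16 normalized counts. IL6 was at 352 in Control and at 9299 to 14629 in the 3 libraries given LPS, whereas IL6ST stayed between 11322 and 18638 throughout.

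The promoter sequences of the called ligand genes, and of IL11 beside them, are shown because IL6 and EBI3 were both called higher with LPS and IL11 stands at the edge of detection. Each is the 250 bases before the start of the gene in RefSeq on build GRCh38.p14, read 5′ to 3′ on the strand of the gene, and 8 of the 9 genes had an entry in the table of promoters, the exception being LIF. Capitals mark matches to 5 motifs searched on both strands: the kappa B consensus, TGANTCA for AP-1, TTGCNNAA for C/EBP, TTCNNNGAA for STAT factors and TATAAA for the core promoter box.
IL6, chr7:22726950-22727199, plus strand: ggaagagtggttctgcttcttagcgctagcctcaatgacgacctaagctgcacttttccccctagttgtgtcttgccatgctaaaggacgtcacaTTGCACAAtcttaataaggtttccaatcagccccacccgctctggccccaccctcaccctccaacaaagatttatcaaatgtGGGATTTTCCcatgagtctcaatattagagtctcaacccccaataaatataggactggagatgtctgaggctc
EBI3, chr19:4229273-4229522, plus strand: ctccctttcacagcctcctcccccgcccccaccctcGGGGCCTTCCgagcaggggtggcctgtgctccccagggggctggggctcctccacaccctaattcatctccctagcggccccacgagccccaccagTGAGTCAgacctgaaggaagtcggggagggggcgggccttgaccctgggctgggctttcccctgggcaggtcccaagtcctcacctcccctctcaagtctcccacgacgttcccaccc
IL11, chr19:55370464-55370713, minus strand: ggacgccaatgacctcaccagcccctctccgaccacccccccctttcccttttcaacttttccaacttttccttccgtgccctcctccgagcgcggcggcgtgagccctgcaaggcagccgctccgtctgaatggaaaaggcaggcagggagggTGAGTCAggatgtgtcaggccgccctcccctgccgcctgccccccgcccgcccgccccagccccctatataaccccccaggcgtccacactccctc

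The IL6 window held GGGATTTTCC, a kappa B match, at bases -73 to -64 from the start, and a C/EBP match at -155 to -148. The EBI3 window held a different kappa B match, GGGGCCTTCC, at -214 to -205, with an AP-1 match, TGAGTCA, at -118 to -112. In the IL11 window the same AP-1 letters were at -96 to -90, with no kappa B match. Among 35114 RefSeq windows of the same length, 6.88% held the kappa B consensus, 6.57% AP-1, 9.05% C/EBP, 6.57% the STAT motif and 10.7% the core promoter box. Of the receptor genes, the IL6R and IL6ST windows and both IL11RA windows held none of the 5 motifs. The OSMR window held a C/EBP match at -73 to -66, and 2 of the 3 LIFR windows held a STAT match, 1 of them with a C/EBP match and the core promoter box as well. Matches to different motifs did not overlap. A match describes these letters and is not a binding site.

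The 3′ untranslated regions of the ligand genes also differed in ATTTA pentamers, the core of AU-rich elements known to shorten the life of cytokine mRNA. The 26-base windows shown here hold the most pentamers in the longest protein-coding transcript of GENCODE 29, with the pentamers in capitals and overlapping ones counted separately.
IL6: ttaATTTAtgtaagtcatATTTAtat
LIF: ctATTTAttatgatatcctATTTAta
IL11: agatcttATTTATTTATTTAtttcag
The IL6 region had 6 pentamers in 432 bases, or 13.9 per kb, against a median of 1.40 and a 90th percentile of 4.74 per kb over 19522 genes. LIF had 7 in 3207 bases, or 2.18 per kb, and IL11 had 9 in 1621 bases, or 5.55 per kb. The longer form TTATTTATT occurred 2 times in LIF, 6 times in IL11, 2 times in OSMR and 1 time in LIFR, and in 7.97% of genes overall. It occurred 0 times in IL6 and in the other family genes. EBI3 had no pentamer in 446 bases. Among the receptor genes the density was 3.64 per kb for OSMR, 3.84 for IL6ST, 4.37 for LIFR and 1.47 for IL6R, and IL11RA had none. The densest OSMR window, not shown, held 3 pentamers, as did that of IL11.

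The receptor genes were transcribed in every library, and none was called in LPS/Control. IL6ST, encoding the shared chain gp130, had the highest count of the family in 3 of the 4 libraries, with 15501 without treatment, 19285 with LPS alone, 18457 with the wild-type peptide and 9636 with the mutant peptide. In normalized counts these were 13491, 18141, 18638 and 11322, so that mut PDZ+LPS was the lowest library and LPS and WT PDZ+LPS the highest. The log2 fold change of IL6ST in LPS/Control was 0.43 (0.40 to 0.46). OSMR, encoding the oncostatin M receptor chain, followed the same order, with 4742 normalized counts without treatment, 6644 with LPS alone, 6826 with the wild-type peptide and 4360 with the mutant peptide. Its log2 fold change in LPS/Control was 0.49 (0.44 to 0.54). The low place of mut PDZ+LPS was lost with the correction, under which mut PDZ+LPS/Control moved from -0.25 to 0.16 for IL6ST and from -0.12 to 0.20 for OSMR.

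IL6R, encoding the ligand-binding chain for IL-6, had 1631 normalized counts without treatment, 2060 with LPS alone, 1849 with the wild-type peptide and 1343 with the mutant peptide. The LPS library was the highest, at a log2 fold change of 0.34 (0.25 to 0.43) over Control. Its mut PDZ+LPS/Control value of -0.28 became 0.014 after the correction. LIFR differed from these 3 genes in direction, with 2294 normalized counts without treatment, 1961 with LPS alone, 1988 with the wild-type peptide and 999 with the mutant peptide. Control was its highest library, and the log2 fold change in LPS/Control was -0.23 (-0.31 to -0.14). IL11RA, the receptor gene with the fewest counts, was at 129, 109, 83.8 and 134 normalized counts in the same order. In LPS/Control it was at -0.24, with an interval of -0.60 to 0.12 that held 0.

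By counting intervals alone, 3 of the 5 receptor genes were higher in LPS/Control and 1 was lower, against 25.9% and 21.3% of all genes. Such intervals leave out the spread between cultures, and at this depth they separated from 0 for a large share of genes in every comparison. Total count scaling moved the median log2 fold change of all genes in LPS/Control to -0.13, and under it IL6R, IL6ST and OSMR were at 0.21, 0.30 and 0.36 and LIFR at -0.36. Relative to IL6ST in the same library, LIFR had a count ratio of 0.170 (0.163 to 0.177) in Control and 0.108 (0.103 to 0.113) in LPS. The OSMR to IL6ST ratio was 0.352 (0.341 to 0.363) in Control and 0.366 (0.356 to 0.376) in LPS. LIFR thus had fewer counts per IL6ST count with LPS, and OSMR did not.

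Some of these symbols overlap other genes in GENCODE 29. The library kit marks strand, but whether the counting used it is not given in the sources used here, so overlapping counts are uncertain. LIFR overlaps LIFR-AS1, an antisense transcript with 6 to 32 counts, most in Control and fewest in mut PDZ+LPS, and OSMR overlaps OSMR-AS1, with 0 to 3 counts. OSMR also overlaps RICTOR, a component of an mTOR complex on the opposite strand, with 673 to 1250 counts. IL11RA overlaps GALT, with 291 to 341 counts.

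Levels between genes were compared per kb of the longest protein-coding transcript, which ran from 1186 bases for EBI3 to 10089 for LIFR. In Control the order of normalized counts per kb was IL6ST (1490), OSMR (856), IL6R (276), IL6 (231), LIFR (227), LIF (152), IL11RA (42.8), EBI3 (3.67) and IL11 (2.67). The neighbours IL6 and LIFR, and EBI3 and IL11, overlapped in their counting intervals, and the others did not. In LPS the ligand genes IL6, at 6607 per kb, and LIF, at 2524 per kb, led the order, followed by IL6ST (2003), OSMR (1200), IL6R (348), LIFR (194), EBI3 (62.7), IL11RA (36.3) and IL11 (1.65). The first 6 places were held by the same genes in WT PDZ+LPS and mut PDZ+LPS, and in both of these libraries the intervals of EBI3 and IL11RA overlapped. The order depends on the transcript length: per kb of the median protein-coding transcript, IL6 still led in LPS at 13188, but IL6ST, at 7048, came before LIF, at 4392.

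Summed over the 9 genes per kb, the ligand genes made up 11.9% of the family level without treatment, 70.9% with LPS alone, 68.5% with the wild-type peptide and 84.0% with the mutant peptide. By the median protein-coding transcript the ligand shares were 6.62%, 56.7%, 54.1% and 74.1% in the same order, and of the counts themselves 4.16%, 41.1%, 38.2% and 59.5%. The share thus rested on the length used, and in LPS the ligand genes had 21456 counts and the receptor genes 30739. IL6 alone accounted for 7.04% of the family level in Control and 50.9% in LPS, and IL6ST for 45.4% and 15.4%. The level of IL6 relative to that of its receptor gene IL6R, both per kb, was 0.837 without treatment, 19.0 with LPS alone, 19.5 with the wild-type peptide and 42.2 with the mutant peptide. The LIF to LIFR ratio of counts was 0.263 (0.242 to 0.286) without treatment, 5.11 (4.87 to 5.35) with LPS alone, 4.43 (4.22 to 4.65) with the wild-type peptide and 11.9 (11.1 to 12.8) with the mutant peptide. The ligand share and both ligand to receptor ratios were highest in mut PDZ+LPS, where they also carry the length trend of that library. This is because IL6 and LIF have shorter transcripts than IL6R, IL6ST, LIFR and OSMR.

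**Figure D2:**
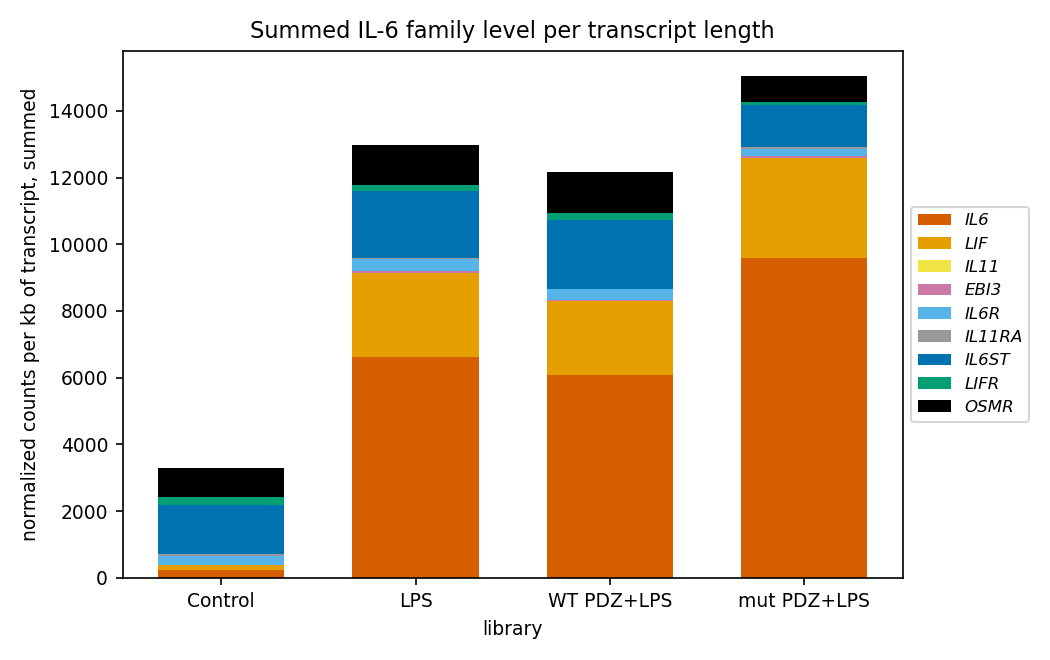
Normalized counts per kb of transcript summed over the 9 genes (vertical axis, linear from 0) in each of the 4 libraries (horizontal axis), stacked by gene, with no error bars. Ligand genes filled 11.9% of the Control bar and 70.9%, 68.5% and 84.0% of the LPS bar, the wild-type peptide bar and the mutant peptide bar. The mutant peptide bar also carries the length trend of that library.

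WT PDZ+LPS/LPS compares the wild-type peptide before LPS with LPS alone. EBI3 was the family gene called here, lower, with 27 counts against 79 in the LPS library and a log2 fold change of -1.41 (-2.13 to -0.80). Over all genes 1.37% were called in this comparison, 0.733% lower, or 0.621% lower after the length and GC correction, under which EBI3 was still called. IL6 was at -0.12 (-0.16 to -0.077) and LIF at -0.19 (-0.23 to -0.15), folds of 0.922 and 0.879 that lie far inside the fold of 2. All 3 ligand genes with 16 normalized counts therefore had intervals below 0, as did 10.2% of all genes. IL11 had 4 counts in each of the 2 libraries.

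The receptor genes differed little between WT PDZ+LPS and LPS. IL6R was at -0.16 (-0.25 to -0.066), and IL11RA at -0.38 (-0.81 to 0.038). IL6ST was at 0.039 (0.0098 to 0.068), LIFR at 0.020 (-0.070 to 0.11) and OSMR at 0.039 (-0.0093 to 0.087). The values of IL6ST and LIFR became -0.0081 and -0.030 after the length and GC correction, so neither has a settled direction. With 1 library each, a difference of this size cannot be told apart from the spread between cultures.

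mut PDZ+LPS/LPS makes the same comparison for the mutant peptide. IL11 was the family gene called here, higher, with 18 counts against 4 in the LPS library, a fold of 4.65 and a log2 fold change of 2.22 (0.89 to 4.51). Over all genes 3.95% were called, and 2.05% of all genes were called higher. Its 21.1 normalized counts in mut PDZ+LPS lie just above the level of 16, and no value for IL11 reached it in the other libraries. IL6 was at 0.54 (0.50 to 0.57) and LIF at 0.25 (0.21 to 0.29), whereas EBI3 was at -0.48 (-1.05 to 0.055). After the correction these became 2.07 for IL11, 0.34 for IL6, 0.33 for LIF and -0.96 (-1.53 to -0.42) for EBI3. The corrected EBI3 interval lay below 0, as did those of 26.2% of all genes, and EBI3 was not called. IL11 was still called, as were 1.22% of genes in the higher direction.

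Of the receptor genes, 4 of 5 had intervals below 0 in mut PDZ+LPS/LPS, against 33.7% of all genes, and none was called. LIFR came closest to the fold of 2, at -0.97 (-1.09 to -0.86), with 850 counts against 2085 in the LPS library. IL6ST was at -0.68 (-0.72 to -0.64), IL6R at -0.62 (-0.72 to -0.51) and OSMR at -0.61 (-0.67 to -0.55). IL11RA, the receptor gene with the shortest transcript, was at 0.29 (-0.090 to 0.68). The correction reduced the sizes to -0.48 for LIFR, -0.21 for IL6ST, -0.30 for IL6R and -0.26 for OSMR, and 4 of 5 intervals were still below 0, against 26.2% of all genes.

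**Figure D3:**
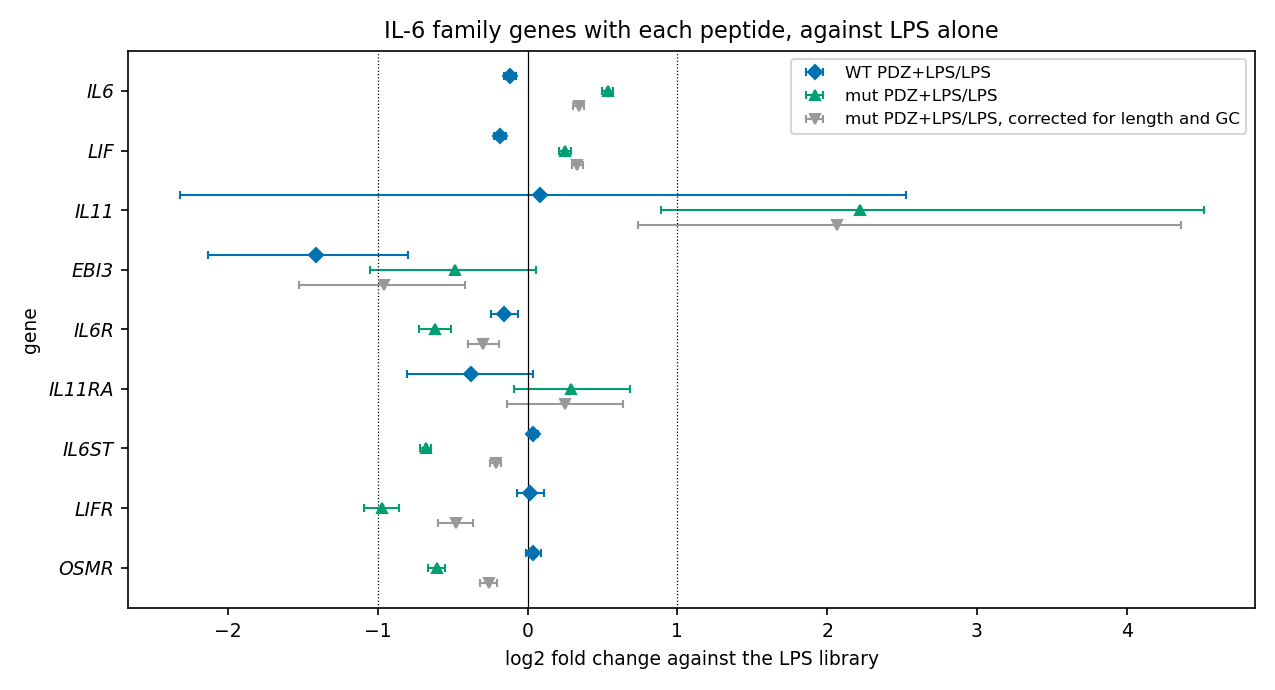
Log2 fold change against the LPS library (horizontal axis) of each family gene (vertical axis) for WT PDZ+LPS and for mut PDZ+LPS, the latter also after the length and GC correction, with bars for the 95% counting interval and dotted lines at a fold of 2. EBI3 with the wild-type peptide (-1.41) and IL11 with the mutant peptide (2.22) lie past a dotted line, and LIFR with the mutant peptide (-0.97) lies just inside it.

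The length trend was set beside each gene by placing all genes in deciles of transcript length. In mut PDZ+LPS/LPS the median log2 fold change of all genes went from 0.40 in the shortest decile to -0.47 in the longest. IL6 (0.54), in length decile 2, lay above the upper quartile of its decile, 0.42, and LIF (0.25), in decile 6, lay above its upper quartile of 0.097. EBI3 (-0.48), in the shortest decile, lay below a lower quartile of 0.23. LIFR (-0.97), in the longest decile, lay below its lower quartile of -0.72, and IL6ST (-0.68), in the same decile, lay inside. OSMR (-0.61) and IL6R (-0.62) lay below their lower quartiles of -0.46 and -0.55, and IL11RA (0.29) lay above its upper quartile of 0.18. What part of each difference belongs to the library and what part to the peptide was not tested.

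**Figure D4:**
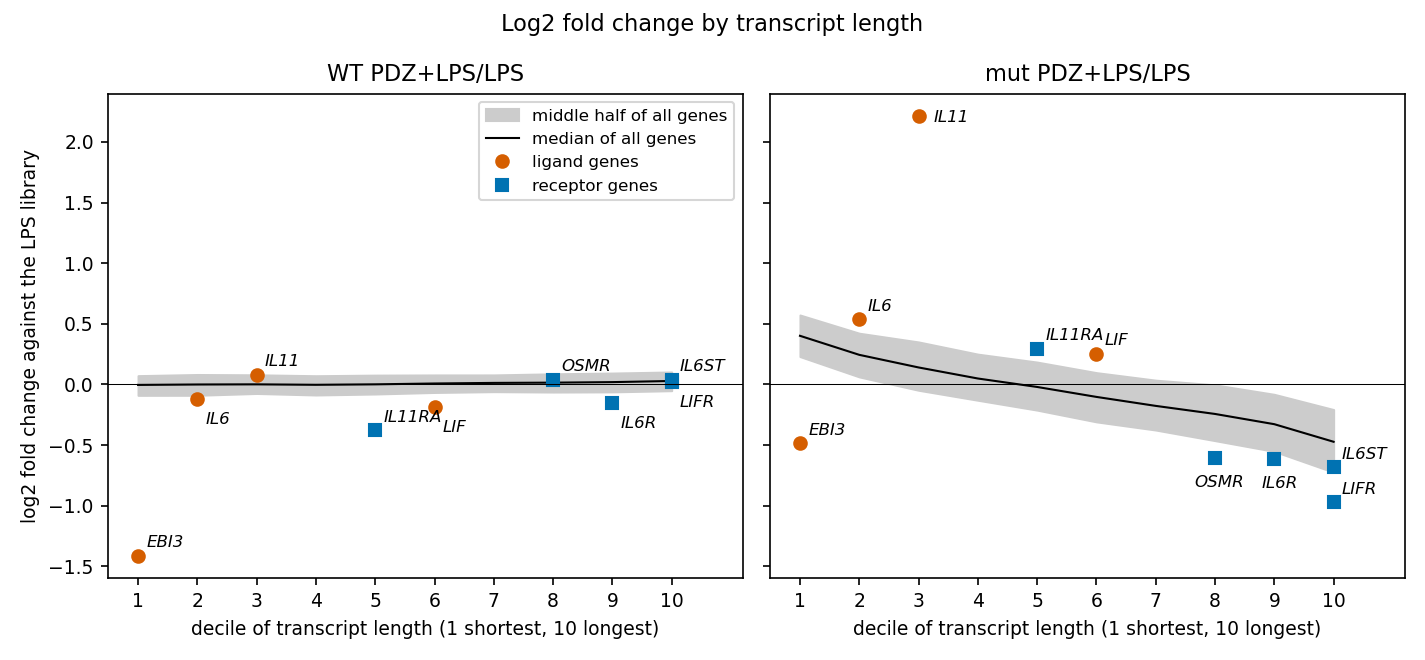
Log2 fold change against the LPS library (vertical axis) by decile of transcript length (horizontal axis, 1 shortest to 10 longest) for each peptide, with the median of all genes as a line, the range between quartiles as a band and the family genes as points. With the mutant peptide the median went from 0.40 to -0.47, and the receptor genes LIFR, IL6ST, IL6R and OSMR have long transcripts.

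The wild-type and mutant peptides were compared directly in mut PDZ+LPS/WT PDZ+LPS, a single pair of related peptides given for the same times. IL11 was called higher with the mutant peptide, at 2.14 (0.79 to 4.41), and over all genes 4.26% were called, 2.12% higher. EBI3 was at 0.93 (0.24 to 1.70), just under a fold of 2, IL6 at 0.65 (0.61 to 0.69) and LIF at 0.44 (0.40 to 0.48). All 4 ligand genes were higher with the mutant peptide by their intervals, as were 29.4% of all genes. After the correction the values were 1.96 for IL11, 0.43 (-0.26 to 1.20) for EBI3, 0.44 for IL6 and 0.51 for LIF. The corrected intervals of IL6 and LIF were above 0, as were those of 25.5% of all genes, and that of EBI3 held 0. That of IL11 was above 0 under the same limit. IL11 was still called, as were 1.24% of genes in the higher direction.

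Of the receptor genes, 4 of 5 were lower with the mutant than with the wild-type peptide by their intervals, as were 34% of all genes. LIFR was at -0.99 (-1.11 to -0.88). IL6ST was at -0.72 (-0.75 to -0.68), OSMR at -0.65 (-0.70 to -0.59) and IL6R at -0.46 (-0.57 to -0.35), and IL11RA at 0.67 (0.26 to 1.10). The corrected values were -0.44 for LIFR, -0.20 for IL6ST, -0.29 for OSMR, -0.13 for IL6R and 0.60 for IL11RA.

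Of 8 other ligand genes of the family, 5 averaged 16 normalized counts or more. CNTF and IL12A were called higher in LPS/Control, as were 3.46% of all genes. IL12A, whose product can pair with EBI3, was at 17.4 normalized counts without treatment, 36.7 with LPS alone, 47.5 with the wild-type peptide and 41.1 with the mutant peptide, with a log2 fold change in LPS/Control of 1.03 (0.26 to 1.93). CLCF1, a ligand of the ciliary neurotrophic factor receptor, was at 198, 337, 386 and 533 normalized counts. It was called higher in mut PDZ+LPS/Control, as were 5.13% of all genes. CNTF had 0, 51, 19 and 29 counts in the same order, at least 18.4-fold higher in LPS than in Control when the 0 is taken as 3 counts. It shares its locus with the read-through symbol ZFP91-CNTF, which had 101, 16, 75 and 0 counts. The sum of both was 101, 67, 94 and 29. The CNTF values are therefore uncertain, as is its call as lower in WT PDZ+LPS/LPS, where 0.733% of all genes were called lower. OSM, the ligand of OSMR, had 0 to 4 counts, and IL27 and IL31 had 0 in every library. The list's median log2 fold change in LPS/Control was 0.76, against -0.0010 for all genes.

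Of the 4 other receptor genes, CNTFR and IL27RA passed 16 normalized counts on average and neither was called in any comparison. IL27RA, a receptor chain that pairs with gp130, was at 550, 880, 863 and 994 normalized counts in the same order. The median of this list in LPS/Control was 0.29. Of the 5 genes for receptor shedding, the release of soluble receptor from the cell surface, none was called. ADAM17, the main shedding protease for the IL-6 receptor, was at 1453, 2270, 2261 and 1593 normalized counts, with a log2 fold change in LPS/Control of 0.64 (0.55 to 0.73), and the median of the list was 0.099.

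Downstream of the receptors, all 10 signal transducer genes passed 16 normalized counts, and 2 of 10 were called higher in LPS/Control, against 3.46% of all genes. JAK2, a kinase bound to gp130, was at 639 normalized counts without treatment, 2565 with LPS alone, 2548 with the wild-type peptide and 2334 with the mutant peptide, with a LPS/Control log2 fold change of 2.00 (1.89 to 2.13). STAT5A, a transcription factor of the STAT family, was at 118, 483, 354 and 353 normalized counts, a log2 fold change of 2.02 (1.75 to 2.31). Both genes were called higher against Control in all 3 LPS-treated libraries, and GAB1, an adaptor, was called lower in mut PDZ+LPS/Control before the correction and not after it. STAT3, the principal transcription factor of the pathway, was at 5077, 6639, 6297 and 5015 and was not called, at 0.39 (0.34 to 0.44). The median of the list was 0.18 in LPS/Control. In mut PDZ+LPS/LPS it was -0.41, and -0.13 with the correction.

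Of 7 feedback inhibitor genes, 5 averaged 16 normalized counts or more and none was called in LPS/Control, with a list median of -0.41. SOCS3, the inhibitor that binds gp130, was at 1093 normalized counts without treatment, 2124 with LPS alone, 1742 with the wild-type peptide and 2539 with the mutant peptide. Its log2 fold change in LPS/Control was 0.96 (0.86 to 1.06), just short of a fold of 2. It was called higher in mut PDZ+LPS/Control, as were 5.13% of all genes. SOCS1, which inhibits JAK kinases, had 0 counts without treatment and 13 with LPS, a level at least 4.68-fold higher with the 0 taken as 3 counts, but stayed below 16 normalized counts in both. SOCS1 was called higher in mut PDZ+LPS/Control, at 16.4 normalized counts, as were 5.13% of all genes. It passed 16 normalized counts in that library alone, and in mut PDZ+LPS/LPS it was at 0.40 (-0.77 to 1.64). SOCS2 had 16.9 normalized counts in LPS and 6.06 in WT PDZ+LPS, from 18 and 6 counts. It was called lower in WT PDZ+LPS/LPS, at -1.35 (-3.10 to -0.088), as were 0.733% of all genes. In mut PDZ+LPS/WT PDZ+LPS SOCS2 was called higher, at 1.31 (-0.029 to 3.11), or 1.48 after the correction, and 2.12% of all genes were called higher before it. PIAS1 was called lower in mut PDZ+LPS/Control before the correction, as were 2.96% of all genes, and not after it.

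Of 27 STAT3 target genes, 21 averaged 16 normalized counts or more. In LPS/Control 8 were called higher and 1 lower, where 3.46% of all genes were called higher and 1.41% lower, with a list median of 0.57 against -0.0010 for all genes. The genes called higher were BCL3, CEBPD, MYC, BCL6, PIM1, IRF1, SERPINA3 and SAA2. The list is not specific to STAT3, since IRF1 and BCL3, for example, are also known targets of NF-kB. Which factor acted on these genes was not tested. IRF1, an interferon-related transcription factor, was at 1069 normalized counts without treatment, 13155 with LPS alone, 9895 with the wild-type peptide and 13572 with the mutant peptide, with a log2 fold change in LPS/Control of 3.62 (3.54 to 3.71). SERPINA3, an acute-phase protease inhibitor, was at 460, 1748, 1492 and 2090, with a log2 fold change of 1.92 (1.78 to 2.07). FGB, the fibrinogen beta chain, was called lower, at 79.2, 26.3, 29.3 and 55.2. In WT PDZ+LPS/LPS the list median was -0.0020 and CRP was called higher, at 16.2 against 5.64 normalized counts, from 16 and 6 counts. Of all genes, 1.37% were called there in either direction, including 0.733% called lower. CRP passed 16 normalized counts in WT PDZ+LPS alone. In mut PDZ+LPS/LPS the list median was 0.25, or 0.17 after the correction. FGB was called higher there before the correction only, as were 2.05% of all genes. Against Control, CEBPB and SAA1 were called higher with the mutant peptide at 1.24 and 1.06, as were 5.13% of all genes. These values became 0.79 and 0.62 after the correction.

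Likeness of pattern over the 4 libraries was measured as the root mean square difference between log2 profiles, each centred on its own mean, among 13072 genes. The profile nearest to that of IL6 was CXCL8, the gene for the neutrophil chemokine IL-8, at a difference of 0.083, followed by PI3, BDKRB1, TRIM15 and ELF3. LIF was nearest to ZC3H12A, the gene for the endonuclease regnase-1, at 0.022, followed by CXCL2, TNFAIP2, CXCL6 and CXCL1. EBI3 was nearest to CXCL10 at 0.17, followed by FOSB, C2CD4A, IRF1 and NFATC1. In Control, EBI3 was at 4.35 normalized counts, CXCL10 at 2.61 and TRIM15 at 0, so the profiles of these genes rest in part on few counts. ZC3H12A was at 773, 13031, 11174 and 14864 normalized counts, from Control to mut PDZ+LPS.

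OSMR was nearest to SLC7A1, an amino acid transporter, at a difference of 0.012, followed by DIEXF, ITPRIPL2, NUP153 and FAM91A1. IL6ST was nearest to TTN-AS1, FAM83A, PURB, NUP153 and SEC24A, and LIFR to MED14OS, GPAM, CYB5RL, MGA and CLCN4. The genes nearest to IL6R included SLC35F5, C2CD2, ULK4 and CCDC144A, and IL11RA was nearest to SPIN2B, MED11, DPF1, CCDC183-AS1 and CCDC163P. The transcript of IL6 has 1527 bases and its neighbours with a length had a median of 1705. The same pair of lengths was 3969 and 1718 for LIF, 1186 and 3579 for EBI3, 5914 and 4613 for IL6R, 3008 and 1392 for IL11RA, 9057 and 6165 for IL6ST, 10089 and 6561 for LIFR and 5539 and 7247 for OSMR, with a median of 3478 over all genes. The likeness rests on 4 points that include the mut PDZ+LPS library, and no likeness of function or control was measured.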

How the data were processed

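RNA from BEAS-2B cells was prepared as a directional poly(A) library and sequenced as paired-end reads of 100 bases. Per the submitters' processing notes, the authors mapped reads with TopHat to hg19 and deposited raw counts per gene symbol, in whole numbers. The annotation, the counter and its strand setting are not given in the sources used here. The methods name FPKM and geometric normalization with edgeR, but the deposited counts are unscaled.

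Size factors came from the median-of-ratios method (DESeq2 1.42.0, R 4.3.3) over all genes and 4 libraries. Intervals of a log2 fold change are exact binomial (Clopper-Pearson), those of a level exact Poisson, and a count of 0 was taken as 3 in a fold. The correction removed a lowess trend (span 0.3, statsmodels 0.14.6) over transcript length and then GC content, taken from GENCODE 29 on another build than the counts, so no coordinates are given for genes, and promoter coordinates belong to GRCh38.p14. Symbols were matched with RefSeq synonyms, which gave 12119 of 13072 genes a length.

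The family genes and the other lists were chosen with earlier results of these data known. Named genes were all family members, the called genes of each list, genes near a call and the 5 nearest profiles, of which 1 is not reported here. The computations were tested on simulated data. Alternatives were scaling by upper quartile, by total count or by TMM (edgeR 4.0.16), size factors without mut PDZ+LPS, a pseudocount of 5, no expression rule and one of 6 (log2), fold thresholds of 1.5 and 3, the correction and the median transcript length.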

Additional observations from a re-analysis of the deposited data

Results flagged for a closer look

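Opposite directions against the shared LPS library, with counting intervals on either side of 0, were seen for 3 family genes, and the difference itself was not tested because each condition had 1 library. The log2 fold change of IL6 was -0.12 with the wild-type peptide and 0.54 with the mutant peptide. LIF was at -0.19 with the wild-type peptide and 0.25 with the mutant peptide. IL6ST was at 0.039 with the wild-type peptide and -0.68 with the mutant peptide, and its value with the wild-type peptide changed sign after the length and GC correction, to -0.0081.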

How the results depend on the processing

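No paired analysis was possible because each condition had 1 library, and for the same reason no replicate could be left out. Where a family gene was called, its log2 fold change kept its sign in that comparison under each alternative run. Of 54 log2 fold changes, 0 moved beyond their counting interval under TMM scaling or a pseudocount of 5, 12 under total count scaling, 12 under upper quartile scaling and 20 under the length and GC correction. With size factors taken without the mut PDZ+LPS library, 0 of 27 moved. An expression rule of 6 on the log2 scale left 3 family genes called in mut PDZ+LPS/Control, 0 in mut PDZ+LPS/LPS and 0 between the 2 peptide libraries, where 5.61%, 1.87% and 2.13% of all genes were called, since IL11 and, against Control, EBI3 do not reach it. A fold threshold of 1.5 called 5 in mut PDZ+LPS/LPS, as it did 17.7% of all genes, and 7 between the 2 peptide libraries, as it did 19.1%. A threshold of 3 called 0 in WT PDZ+LPS/LPS and 0.378% of all genes. IL11RA in mut PDZ+LPS/Control was at 0.056, or -0.042 under total count scaling, which moved the median of all genes to -0.12 there. Depth limits IL11, EBI3, CNTF, SOCS1, SOCS2 and CRP, whose counts are too few for a fold to be given narrowly.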

Other observations

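Genes whose products act on IL6 mRNA were expressed throughout, with 10 of 10 at a mean of at least 16 normalized counts. In LPS/Control 3 of 10 were called higher and none lower, where 3.46% of all genes were called higher. ZC3H12A, the gene for an endonuclease that degrades IL6 mRNA, was at 773 normalized counts in Control and 13031 in LPS, a log2 fold change of 4.07 (3.98 to 4.18). Its relative ZC3H12C was at 1370 and 5527, and ZFP36L1, which binds AU-rich elements, at 1538 and 3583. In mut PDZ+LPS/LPS, ARID5A, an RNA-binding protein known to stabilize IL6 mRNA, was called higher, at 1.15 (0.59 to 1.76), and RC3H2, the gene for roquin-2, lower, at -1.39 (-1.56 to -1.22), in a comparison where 3.95% of all genes were called. After the length and GC correction they were at 0.91 and -0.89, and neither was called. RC3H2 was also lower than with the wild-type peptide, at -1.57 (-1.75 to -1.40), or -1.03 after the correction, which was still called, and 4.26% of all genes were called there before the correction. In WT PDZ+LPS/LPS none of the 10 was called. The list's median was 0.072 in LPS/Control, against -0.0010 for all genes. Against the LPS library it was 0.0021 with the wild-type peptide and 0.039 with the mutant peptide, where all genes had medians of 0.0075 and -0.023.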
